A study of Mus musculus with 8 samples.

Results

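The genes described here make cholesterol or control its synthesis through the transcription factor SREBP2. Of 32 listed genes, 29 had at least 1 array probe annotated with that gene alone, and 59 probes covered them among 19532 named genes on the array. The other listed genes, Acat2, Soat1 and Soat2, were not analysed here. The members fall into 5 in the steps up to mevalonate and its phosphates, 4 in the prenyl steps, 11 in the sterol steps, 6 in the control of SREBP2 and 3 in sterol transport. Rows were matched to these genes by symbol.

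Liver RNA came from 4 mice with the Per2Brdm1 mutation, a germline allele of the clock gene Per2 that removes part of its PAS domain, and from 4 wild-type mice. The labels do not say whether the mutants were homozygous. Both groups had a mixed 129sv and C57Bl/6 background, belonged to 1 cohort and were starved for 8 h before death. Each mouse was hybridised to its own 1-colour Agilent array. In the deposited table each probe has its median across the 8 arrays set to 0, so values show differences between mice and carry no expression level. Neither log base nor direction is given with the table. The values were read as log2 with higher meaning brighter, and every fold below depends on this reading. Age, sex and the time of day of death are not given in the sources used here. In whole liver, fewer cells of a type and less RNA per cell cannot be told apart.

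Hepatocytes build cholesterol from acetyl-CoA by way of mevalonate, farnesyl diphosphate, squalene and lanosterol. SREBP2 switches on most of the genes of this chain. When sterols are plentiful, SCAP and its SREBP cargo are held in the endoplasmic reticulum by the INSIG proteins, and when sterols run low they move to the Golgi, where the site-1 and site-2 proteases free the active factor. Insig1 is itself a target of SREBP, while in rodent liver Insig2 has a separate transcript that is repressed by insulin and rises on fasting.

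Of the 20 measured synthesis enzymes 7 fell in the mutants and 0 rose, Insig1 fell and Insig2 rose. At a Benjamini-Hochberg adjusted p under 0.05 by limma over 28042 rows, 9 of 29 members fell and 1 rose, against 8.93% of all rows that fell and 6.52% that rose. The members were chosen with earlier results of these data known, so this count describes the list and does not test it. The members that fell were Aacs, Mvk, Fdps, Fdft1, Lss, Msmo1, Sc5d, Insig1 and Stard4, and the member that rose was Insig2. Of 18 other settings of the fit, Aacs, Mvk, Msmo1, Stard4 and Insig2 passed in all and Lss in 16. In 1 of these settings each probe was fitted alone, and the probe with the smallest p stood for its gene. Fdft1 and Insig1 passed in only 8 each, and Fdps and Sc5d in only 5 each. The median difference of the members, mutant minus wild type, was -0.41 on the log2 scale, and that of all rows was 0.08. The mutant and wild-type mice did not overlap, with mutants lower, in 10 members, the 9 that fell and Dhcr7, where 14.6% of all rows did so. They did not overlap with mutants higher in Insig2 alone, where 10.0% of all rows did so. Below, a difference is the mutant mean less the wild-type mean in log2 units ± the fit's standard error (4 mice per genotype), and values of single mice are listed in replicate order, 1 to 4.

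**Figure D1:**
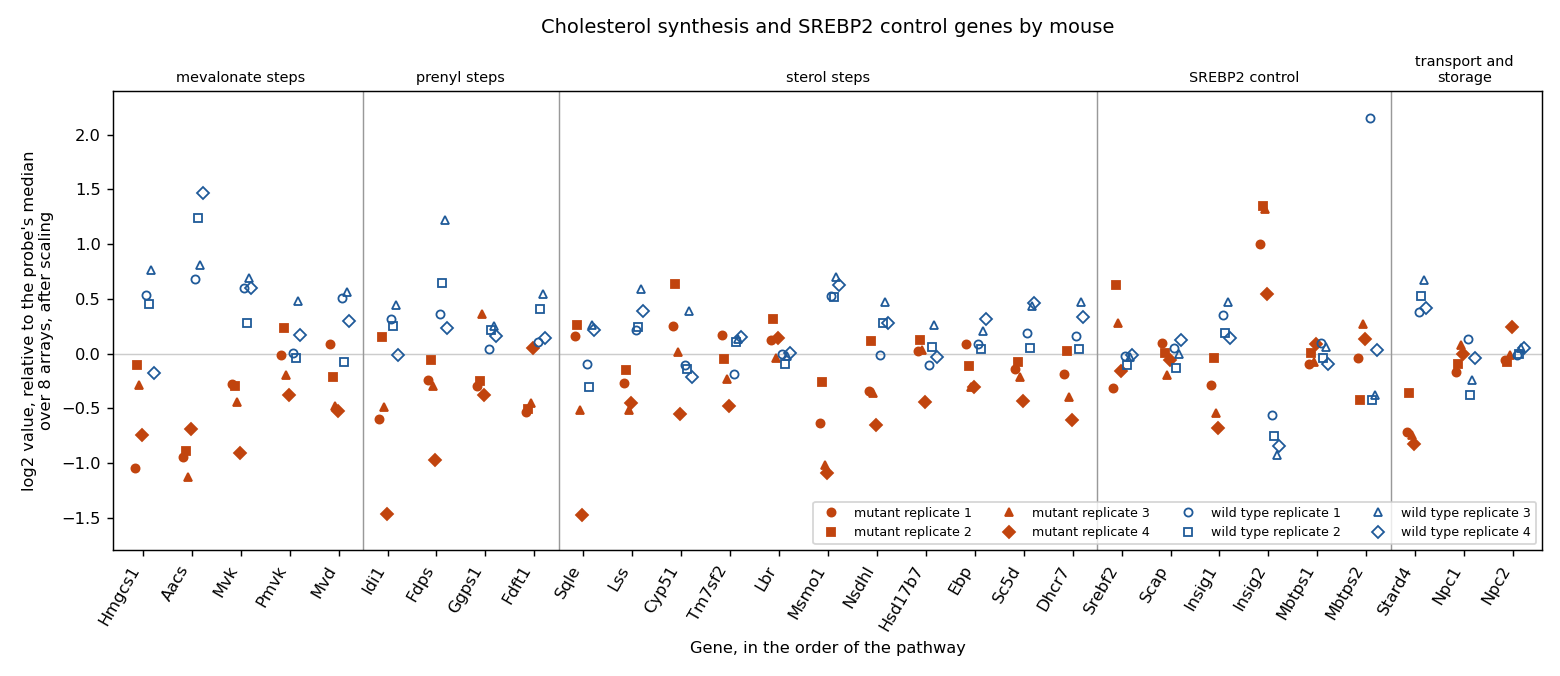
Scaled log2 value of each of the 29 measured genes (vertical axis, relative to the probe's median over the 8 arrays) by gene in pathway order (horizontal axis). Filled orange symbols are the 4 mutant mice and open blue symbols the 4 wild-type mice, with 1 symbol shape for each replicate number. Aacs, Msmo1 and Stard4 separate with all mutants low, and Insig2 separates with all mutants high.

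The arrays themselves differed in ways that touch these counts. As deposited, the 25th percentile of wild type replicates 2 and 3 was -0.94 and -0.71, against -0.21 to -0.08 on the other 6 arrays, and their mean control features after scaling were -0.57 and -0.28, against -0.01 to 0.21. Without these 2 mice 4 members fell, Aacs, Mvk, Msmo1 and Stard4, and Insig2 still rose, where 3.16% of all rows fell and 3.13% rose. Wild type replicate 1 correlated with the other wild-type arrays at only -0.01 to 0.08, as a description over all rows, and without it 6 members fell, where 7.11% of all rows did. With the values as deposited, where the median of all rows moved up by 0.12, 6 members fell against 5.48% of all rows, and the median of the members was -0.29. The scaling used for the main fit followed genotype. It shifted the mutant arrays by -0.09 to -0.01 and the wild-type arrays by 0.05 to 0.07, which favours calls of a fall. The 2 Per2 probes moved in opposite directions, by -1.70 ± 0.12 and 2.54 ± 0.13. The mutants' Per2 values were -0.84 to -0.74 at the first probe and 1.09 to 1.52 at the second. In wild type they were 0.70 to 1.13 and -1.37 to -1.10. Where these probes lie relative to the deletion is not given, so they do not check the genotype.

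Defining markers of hepatocytes did not separate the groups as a list. Of 8 measured markers 1 fell, the transthyretin gene Ttr, and 0 rose, where 8.93% of all rows fell and 6.52% rose. The mean of the list was -0.15 to 0.09 in mutants and -0.05 to 0.09 in wild type. Among markers of other cells, only the squamous epithelium and Kupffer cell lists had means that did not overlap between genotypes. Of 13 markers of squamous epithelium 5 fell, led by Crct1 (-7.32) and Krt4 (-6.58). The other 8 did not pass, and 4 of them differed upward. The mean of the list was -0.98 to -0.73 in mutants and 0.64 to 2.08 in wild type. Of 10 Kupffer cell markers 9 rose, among them Marco (2.16) and Cd163 (1.52), with a list mean of 0.46 to 0.78 in mutants and -0.79 to -0.31 in wild type. Of 8 stellate cell and fibroblast markers 3 rose, the collagen genes Col1a1 (1.12) and Col3a1 (0.86) and Lum (0.54), and Lrat fell (-0.45), with list means of -0.04 to 0.45 and -0.24 to 0.25. Of 5 cholangiocyte markers Sox9 alone rose (0.88) and of 8 gastric gland markers Tff1 alone rose (2.33), where 6.52% of all rows rose. Their list means were -0.47 to 1.11 in mutants against -0.14 to 0.25 in wild type, and -0.67 to 1.53 against -0.63 to -0.17. By limma 0 of 8 endothelial and 0 of 6 exocrine pancreas markers passed, with 2 and 0 at an unadjusted p under 0.05. The share of all rows at that unadjusted threshold was not computed. The pancreas list mean ran from -3.75 to 1.43 in mutants and from -1.95 to 3.14 in wild type. The endothelial one ran from -0.0935 to 0.46 in mutants and from -0.31 to -0.0926 in wild type, so the genotypes barely overlapped. Of the 8 endothelial markers 7 differed upward and 1 downward. The part of these cells in the differences below was not tested. Because values are centred, no level shows which of these markers were at background. Ivl of the squamous list and Gkn1 of the gastric list shared a profile that was low only in wild type replicates 2 and 3. In these mice Ivl read -0.945 and -0.734 and Gkn1 -0.998 and -0.748. Pdss2, an isoprenoid enzyme gene outside the marker lists, read -0.942 and -0.715 there. Both markers were counted in their lists, and whether this profile is background signal was not tested.

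The first steps join acetyl units and carry them to mevalonate and its phosphates. Aacs, which activates acetoacetate for the synthesis of cholesterol and fatty acids, showed the largest fall among the 29 members. The mutants read -0.94, -0.89, -1.13 and -0.69 and the wild-type mice 0.68, 1.24, 0.81 and 1.47. All mutants were well below all wild-type mice, and the difference was -1.96 ± 0.20, a 3.90-fold fall (adjusted p = 0.00117).

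Mvk, the kinase that phosphorylates mevalonate, stood at -0.28, -0.29, -0.44 and -0.91 in the mutants and at 0.60, 0.28, 0.69 and 0.60 in wild type. The groups did not overlap, with mutant replicate 4 lowest, and the fall was 2.03-fold (-1.02 ± 0.17, adjusted p = 0.00753). Both Mvk probes passed alone, with -1.11 and -0.94.

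Hmgcs1, the cytosolic synthase that makes the reductase's substrate in this pathway, differed by -0.94 ± 0.27 and did not pass (adjusted p = 0.0554). Its mutant values were -1.04, -0.11, -0.29 and -0.74 and its wild-type values 0.53, 0.46, 0.77 and -0.18, so wild type replicate 4 lay within the range of the mutants. Of its 2 probes, A_51_P146941 passed alone (-0.87 ± 0.17, adjusted p = 0.0131), while A_52_P388072 (-1.0 ± 0.43) had the wider spread between mice. Without wild type replicate 4 the gene passed (adjusted p = 0.0344). The later kinase gene Pmvk differed by -0.24 ± 0.17 and the decarboxylase gene Mvd by -0.60 ± 0.20 (adjusted p = 0.327 and 0.0787). The 95% interval of Mvd, -1.06 to -0.15, lay below 0, although the gene did not pass after adjustment over all rows.

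**Figure D2:**
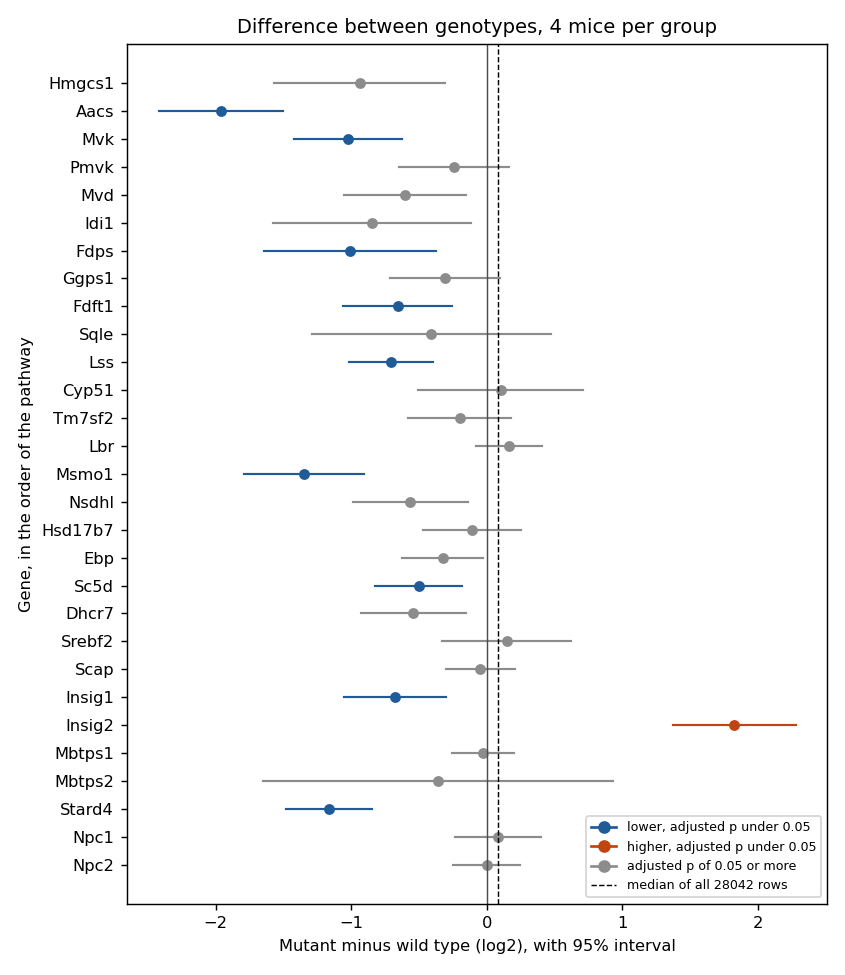
Mutant minus wild type difference of each member (horizontal axis, log2) with its 95% interval from the limma fit, by gene in pathway order (vertical axis). Blue points fell, the orange point rose and grey points did not pass, and the dashed line marks the median of all rows at 0.08. The points of 18 of the 20 enzymes lie below 0, and Insig2 lies alone at 1.83.

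In the prenyl steps, which build the branched chains up to squalene, Fdps and Fdft1 fell and the other 2 genes did not pass. Fdps, the farnesyl diphosphate synthase gene, read -0.24, -0.06, -0.30 and -0.97 in the mutants and 0.36, 0.65, 1.22 and 0.24 in wild type. The groups were apart, but wild-type mice were spread widely, and the difference of -1.01 ± 0.27 passed narrowly (adjusted p = 0.0435). Leaving out any one of the 8 mice ended the call (adjusted p = 0.0535 to 0.0970), as did the values as deposited (0.0659), and neither probe passed alone.

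Fdft1 encodes squalene synthase, the first enzyme committed to sterols. Mutant values of -0.53, -0.51, -0.45 and 0.05 faced wild-type values of 0.10, 0.40, 0.54 and 0.14, so that mutant replicate 4 came close to wild type replicate 1 without crossing it. The fall was 1.58-fold (-0.66 ± 0.17, adjusted p = 0.0400). With the deposited scaling Fdft1 did not pass (adjusted p = 0.0849). Nor did it pass when a mouse other than mutant replicate 4 or wild type replicate 1 was left out (up to 0.103). One of its 2 probes passed alone, at -0.78 ± 0.17 (adjusted p = 0.0191). Idi1, which isomerises the 5-carbon unit, differed by -0.85 ± 0.31 and did not pass (adjusted p = 0.115), with mutants from -1.46 to 0.15 and wild type from -0.02 to 0.44. Its call appeared without mutant replicate 2 (adjusted p = 0.0453). Ggps1, on the branch to protein prenylation and ubiquinone, differed by -0.31 ± 0.18 (adjusted p = 0.234). One of its 3 probes, A_51_P179604, passed alone at -0.56 ± 0.12 (adjusted p = 0.0152), and a second held 1 high mutant value of 1.58 in replicate 3. Without mutant replicate 3 Ggps1 passed (adjusted p = 0.0383).

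Of the 11 genes that turn squalene into cholesterol, 3 fell and 0 rose by the limma test, against 8.93% and 6.52% of all rows. Msmo1, the sterol C4-methyl oxidase, fell most. Its mutant values were -0.63, -0.26, -1.02 and -1.10 and its wild-type values 0.52, 0.52, 0.70 and 0.63. Wild-type mice lay close together and every mutant lay below them, with a difference of -1.35 ± 0.19, or 2.55-fold (adjusted p = 0.00396). Lss, lanosterol synthase, which closes the sterol rings, read -0.27, -0.15, -0.52 and -0.45 against 0.22, 0.25, 0.59 and 0.39. The groups were apart and the fall was 1.63-fold (-0.70 ± 0.13, adjusted p = 0.0117), with all 3 probes passing alone. Lss held without any one mouse but not without wild type replicates 2 and 3 together (adjusted p = 0.0687). Sc5d, the C5-desaturase of the last steps, stood at -0.14, -0.08, -0.21 and -0.44 against 0.19, 0.05, 0.44 and 0.47. The groups lay next to each other, and the difference of -0.50 ± 0.14 passed narrowly (adjusted p = 0.0471). It was lost as deposited (adjusted p = 0.106), with a common median and without any one mouse other than wild type replicate 2 (up to 0.121).

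The other 8 sterol genes did not pass. Nsdhl, a decarboxylating dehydrogenase of the C4 steps, and Dhcr7, the final reductase of 1 branch, differed by -0.56 ± 0.18 and -0.54 ± 0.17 (adjusted p = 0.0809 and 0.0669). Nsdhl passed without mutant replicate 2 (adjusted p = 0.0366). Ebp, the sterol isomerase, differed by -0.32 ± 0.13 and Tm7sf2, a C14 reductase, by -0.20 ± 0.16. Hsd17b7, the ketosteroid reductase of the C4 steps, differed by -0.11 ± 0.16, and its sign turned as deposited (0.01). Lbr, which serves as a second C14 reductase besides its role in the nuclear lamina, differed by 0.17 ± 0.11.

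Sqle and Cyp51 act just before and just after Lss in the pathway and did not pass. For Sqle, the squalene epoxidase, mutants read 0.16, 0.26, -0.51 and -1.48 and wild-type mice -0.10, -0.31, 0.26 and 0.21. Only mutant replicates 3 and 4 were below all wild-type mice, and the difference of -0.41 ± 0.38 had a 95% interval of -1.29 to 0.47. Cyp51, the lanosterol demethylase, differed by 0.10 ± 0.26 (95% interval -0.50 to 0.71), with 1 of its 3 probes at -0.30 and the others at 0.26 and 0.36. Without mutant replicate 2 its difference was -0.08.

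The enzymes also varied among mice of the same genotype. Over the 20 measured enzymes mutant replicate 4 was the lowest of the mutants in 15 and mutant replicate 2 the highest in 13. Wild type replicate 3 was the highest of its group in 15 of 20. The median over the 20 enzymes was -0.21, -0.07, -0.34 and -0.54 in the mutants and 0.13, 0.16, 0.47 and 0.22 in the wild-type mice. Every mutant median was thus below every wild-type median, while in Aacs and Fdft1 mutant replicate 4 was the highest mutant instead.

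The promoters of 4 of these enzyme genes are shown because Aacs, Mvk and Msmo1 fell under every setting tried and Hmgcs1 holds the only sterol element found. Each line gives the 250 bases before the annotated start, from RefSeq on build GRCm38.p6, read 5′ to 3′ on the gene's strand. Capitals mark CCAAT (the NF-Y box), GGGCGG (the Sp1 box), CACGTG (the E-box) and TCACNCCAC (a form of the sterol regulatory element, where N is any base), on either strand. TTATGNAA, a D-box form, was searched too, and no hit of a motif overlapped another.
Hmgcs1, chr13:119690101-119690350, plus strand: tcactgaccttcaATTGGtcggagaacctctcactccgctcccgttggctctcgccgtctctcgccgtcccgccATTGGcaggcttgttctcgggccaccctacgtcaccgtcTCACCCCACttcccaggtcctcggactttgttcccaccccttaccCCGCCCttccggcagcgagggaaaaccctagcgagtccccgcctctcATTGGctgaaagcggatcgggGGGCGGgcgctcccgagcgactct
Aacs, chr5:125475623-125475872, plus strand: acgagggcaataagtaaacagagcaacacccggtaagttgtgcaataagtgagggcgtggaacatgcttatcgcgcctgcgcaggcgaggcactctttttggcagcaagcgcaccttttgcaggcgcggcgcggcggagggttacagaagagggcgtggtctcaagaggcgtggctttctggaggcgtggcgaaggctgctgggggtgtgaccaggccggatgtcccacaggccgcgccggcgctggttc
Mvk, chr5:114444019-114444268, plus strand: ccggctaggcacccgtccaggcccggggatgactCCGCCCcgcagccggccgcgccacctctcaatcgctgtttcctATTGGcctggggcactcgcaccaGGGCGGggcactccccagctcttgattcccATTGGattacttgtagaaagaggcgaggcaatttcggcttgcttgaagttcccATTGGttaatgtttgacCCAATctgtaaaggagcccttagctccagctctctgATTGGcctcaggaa
Msmo1, chr8:64733579-64733828, minus strand: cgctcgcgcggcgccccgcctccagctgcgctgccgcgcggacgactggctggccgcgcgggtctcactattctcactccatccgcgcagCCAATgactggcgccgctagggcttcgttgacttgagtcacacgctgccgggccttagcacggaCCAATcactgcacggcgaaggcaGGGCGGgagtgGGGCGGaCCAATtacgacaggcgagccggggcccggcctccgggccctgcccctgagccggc
The Hmgcs1 window holds the sterol element 137 bases before the start. The Aacs window holds none of the motifs searched. The Mvk window holds 5 NF-Y boxes and 2 Sp1 boxes, and the Msmo1 window 3 and 2.

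RefSeq windows of 300 bases, which also take in 50 bases after the start, were found for 24 of the 29 members. NF-Y boxes were present in 20 of 24, against 41.1% of 27025 genes with a window, and Sp1 boxes in 20 of 24, against 38.2%. The members' windows were also richer in G and C, with a median of 62.5% against 52.8% for all genes. The sterol element form was found in 1 of 24 members and 1.44% of all genes, E-boxes in 5 of 24 and 8.09%, and D-boxes in 0 of 24 and 3.99%. Among the 6 members with a window that fell, 5 held an NF-Y box and 5 an Sp1 box, and among the other 18 members 15 held each. A match describes letters in this window and is not a binding site, and a missing match says nothing of the factor.

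**Figure D3:**
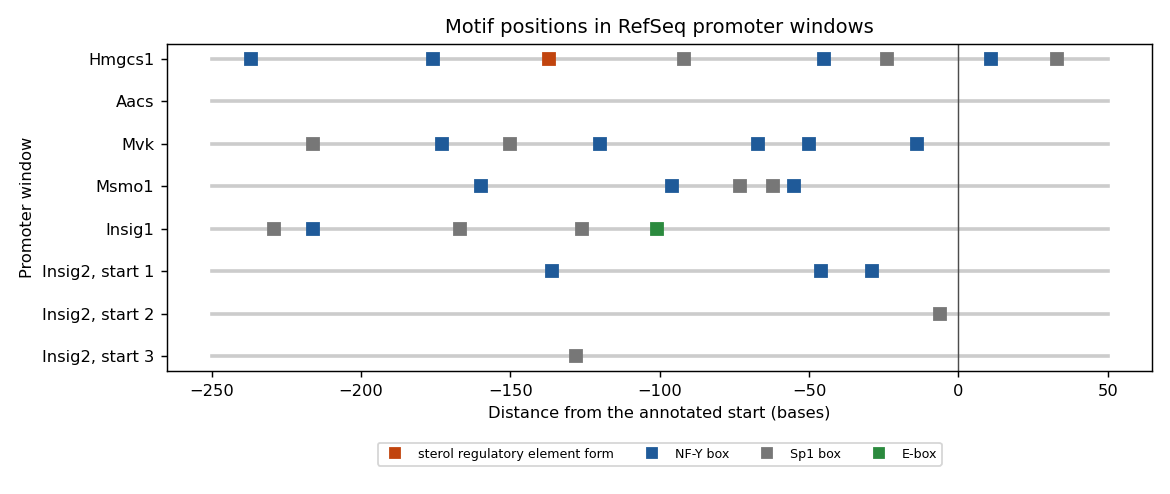
Positions of motif matches (coloured squares) in 8 RefSeq promoter windows (vertical axis) by distance in bases from the annotated start (horizontal axis, negative before the start). Hmgcs1 alone holds the sterol regulatory element form, Insig1 alone an E-box, Aacs has no match, and the first Insig2 start holds 3 NF-Y boxes where the other two hold none.

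The INSIG genes moved in opposite directions. Insig2 read 1.0, 1.35, 1.32 and 0.55 in the mutants and -0.56, -0.75, -0.93 and -0.84 in wild type. The groups were far apart, with mutant replicate 4 the least raised, and the rise was 3.54-fold (1.83 ± 0.20, adjusted p = 0.00144). Its probes A_51_P439452 and A_52_P113250 both passed, at 1.99 ± 0.19 and 1.66 ± 0.22. Insig1 read -0.29, -0.04, -0.54 and -0.68 against 0.35, 0.19, 0.47 and 0.14. Mutant replicate 2 came closest to wild type, and the fall was 1.60-fold (-0.68 ± 0.16, adjusted p = 0.0285). Insig2 passed without any one mouse and without wild type replicates 2 and 3 together. Insig1 lost its call without those 2 mice (adjusted p = 0.150) and without any one mouse other than mutant replicate 2 (up to 0.0781), and with the values as deposited it passed at 0.0498.

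**Figure D4:**
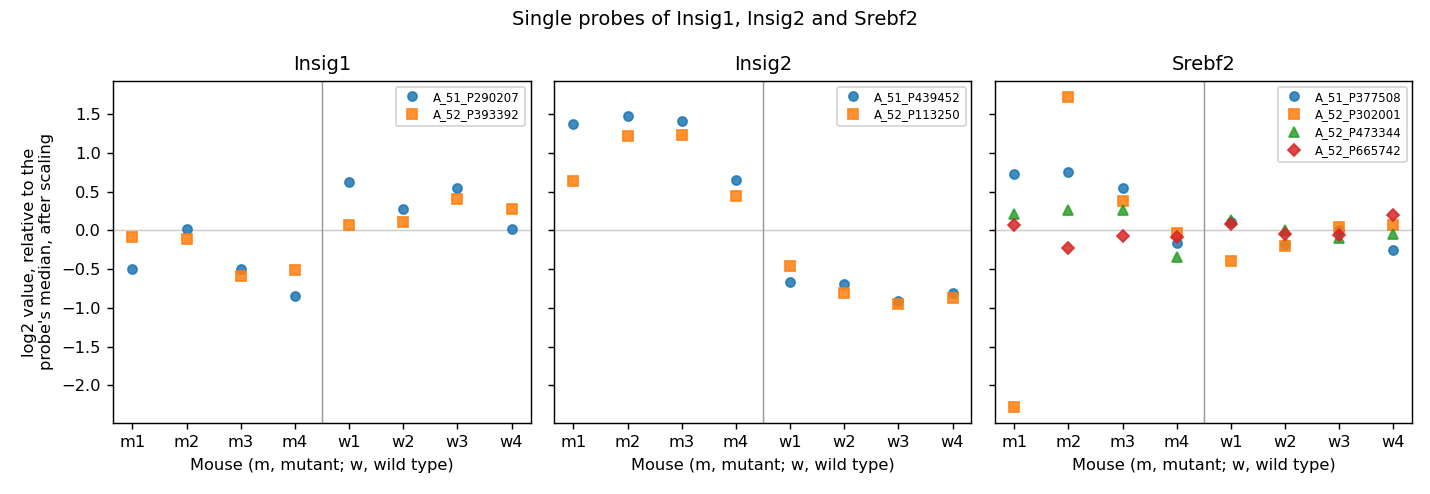
Scaled log2 values of the single probes of Insig1, Insig2 and Srebf2 (vertical axis, relative to the probe's median) in the 4 mutant (m) and 4 wild-type (w) mice (horizontal axis), with 1 symbol per probe. Both Insig2 probes are above 0 in every mutant and below 0 in every wild-type mouse, and 1 Srebf2 probe runs from -2.28 to 1.73 among the mutants.

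The promoters of this opposed pair are shown with the same marking. RefSeq gives 1 start for Insig1 and 3 for Insig2, numbered here in the direction of transcription.
Insig1, chr5:28071162-28071411, plus strand: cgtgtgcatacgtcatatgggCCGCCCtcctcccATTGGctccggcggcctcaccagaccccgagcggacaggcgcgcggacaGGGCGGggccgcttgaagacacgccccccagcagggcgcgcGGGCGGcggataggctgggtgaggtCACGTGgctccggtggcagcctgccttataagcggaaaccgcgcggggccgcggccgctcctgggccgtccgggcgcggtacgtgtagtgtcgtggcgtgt
Insig2 start 1, chr1:121332590-121332839, minus strand: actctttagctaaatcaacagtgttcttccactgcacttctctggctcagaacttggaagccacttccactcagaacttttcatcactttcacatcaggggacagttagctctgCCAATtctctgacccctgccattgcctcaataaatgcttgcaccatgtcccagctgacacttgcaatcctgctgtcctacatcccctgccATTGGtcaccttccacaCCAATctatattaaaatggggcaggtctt
Insig2 start 2, chr1:121328025-121328274, minus strand: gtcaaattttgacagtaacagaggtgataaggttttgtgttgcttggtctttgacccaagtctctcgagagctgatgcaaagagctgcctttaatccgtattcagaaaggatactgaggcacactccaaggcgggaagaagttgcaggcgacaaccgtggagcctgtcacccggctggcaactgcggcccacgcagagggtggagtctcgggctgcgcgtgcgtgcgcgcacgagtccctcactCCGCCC
Insig2 start 3, chr1:121327679-121327928, minus strand: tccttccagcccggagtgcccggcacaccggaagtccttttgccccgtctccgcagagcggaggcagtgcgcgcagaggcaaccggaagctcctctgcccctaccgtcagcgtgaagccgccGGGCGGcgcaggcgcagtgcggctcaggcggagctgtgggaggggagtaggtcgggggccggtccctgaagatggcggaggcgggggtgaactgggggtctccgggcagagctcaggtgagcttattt
The first Insig2 start holds 3 NF-Y boxes and 0 Sp1 boxes, and the other starts 1 Sp1 box each. Which of the starts was in use cannot be read from the 2 Insig2 probes, whose positions are not given.

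The genes of SREBP2 itself and of its machinery did not pass. Srebf2, which encodes the factor, read -0.32, 0.63, 0.28 and -0.16 in the mutants and -0.02, -0.11, -0.03 and -0.01 in wild type. Mutants lay on both sides of the narrow wild-type range, and the difference was 0.15 ± 0.21 (95% interval -0.33 to 0.62, adjusted p = 0.626). Its 4 probes differed by -0.13 to 0.54, 0 of them passed, and the spread of the mutants came mostly from A_52_P302001, at -2.28, 1.73, 0.38 and -0.03. Scap, the sterol-sensing escort, read 0.10, 0.01, -0.20 and -0.06 against 0.05, -0.13, -0.01 and 0.12. The groups overlapped, with a difference of -0.05 ± 0.11 and a 95% interval of -0.30 to 0.21. Mbtps1, the site-1 protease gene, differed by -0.03 ± 0.10. For both Scap and Mbtps1 the sign turned as deposited (0.07 and 0.09). Mbtps2, the site-2 protease gene, differed by -0.36 ± 0.56, where wild type replicate 1 alone stood at 2.15 and the other 7 mice between -0.42 and 0.27. That value came from 1 of its 2 probes, at 4.97, and without this mouse the difference was 0.24.

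Of the 3 transport genes 1 fell, where 8.93% of all rows did. Stard4, a soluble carrier that moves cholesterol between membranes and is known as an SREBP2 target, read -0.72, -0.36, -0.75 and -0.83 against 0.38, 0.53, 0.67 and 0.41. The groups were far apart, with a 2.24-fold fall (-1.16 ± 0.14, adjusted p = 0.00196), and all 3 probes passed alone at -1.40 to -1.02. Npc2 and Npc1, which together release cholesterol from lysosomes, did not pass. The 95% interval was -0.25 to 0.25 for Npc2 and -0.23 to 0.40 for Npc1. The 2 Npc1 probes disagreed, at -0.34 and 0.52, and the second was low only in wild type replicates 2 and 3 (-0.95 and -0.71), the arrays with the low 25th percentile.

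**Figure D5:**
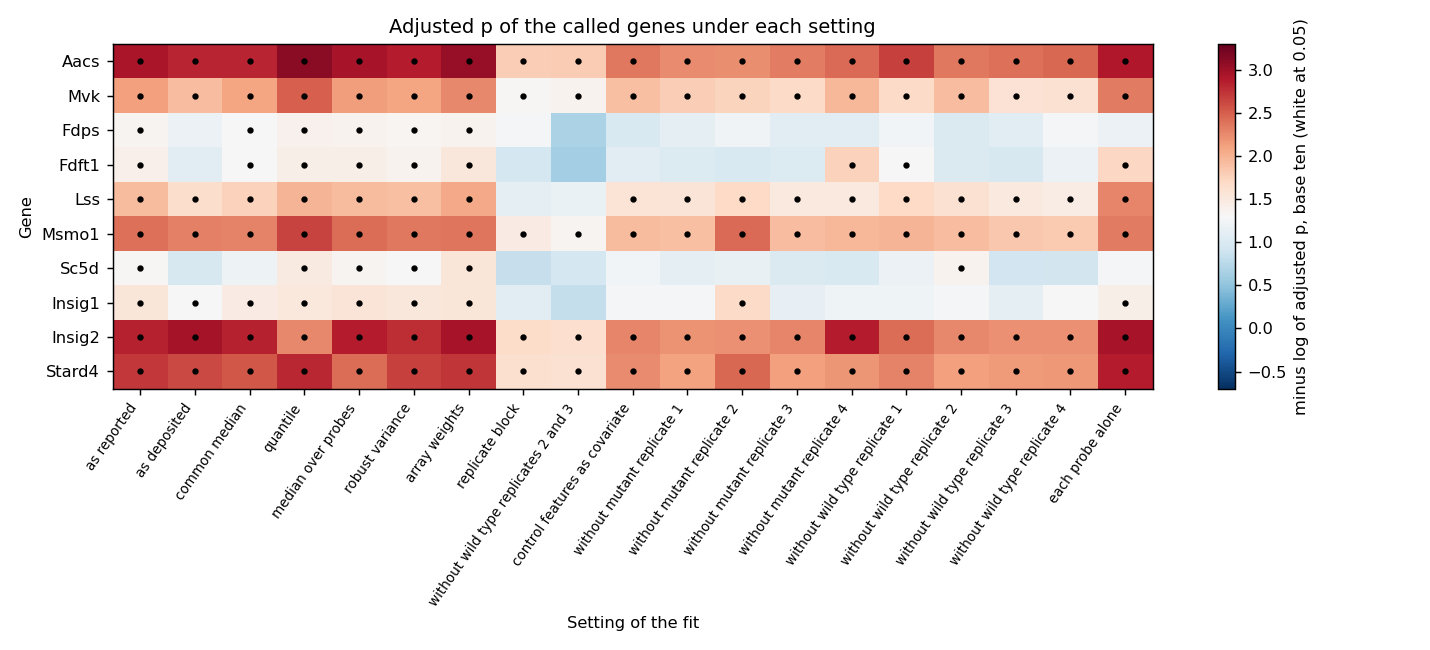
Adjusted p of the 10 members that passed (vertical axis) under each setting of the fit (horizontal axis), coloured by minus its log10 with white at 0.05, and a black dot where the gene passed. Aacs, Mvk, Msmo1, Stard4 and Insig2 carry a dot in every column, while Fdps carries none in the columns that leave out 1 mouse.

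Other genes of sterol metabolism, taken from lists of known roles, gave 13 of 56 lower and 1 higher, against the same 8.93% and 6.52% of all rows. These lists too were chosen with earlier results of these data known, so the counts are no independent support. As deposited 5 of the 56 fell, against 5.48% of all rows. Without wild type replicates 2 and 3 by limma 4 fell, against 3.16% of all rows, and 0 rose, against 3.13%. In a list of 12 further genes 6 fell, against 8.93% of all rows. This list holds enzymes of sterol and isoprenoid synthesis together with genes that supply acetyl-CoA or have other roles near these pathways. Cyb5b, an outer mitochondrial cytochrome b5, differed by -1.17 ± 0.11, Dhdds, which makes the dolichol chain, by -0.59 ± 0.11 and Acly, which supplies cytosolic acetyl-CoA, by -0.64 ± 0.14 (adjusted p = 0.00101, 0.0106 and 0.0221). Dhdds did not pass without wild type replicates 2 and 3 (adjusted p = 0.0662), and Acly did not pass as deposited (0.0536) or when mutant replicate 1, 2 or 4 or wild type replicate 1 or 4 was left out (up to 0.0611). The 2 Acly probes disagreed. The probe with the smaller p differed by -1.70, so the other differed upward, and the fall of Acly is an average of both.

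Of 8 other genes known as SREBP targets 2 fell, against 8.93% of all rows. Srebf1, whose SREBP1c form drives fatty acid synthesis, differed by -1.88 ± 0.20, and Mmab, which shares a promoter region with Mvk, by -0.50 ± 0.13 (adjusted p = 0.00146 and 0.0390). Mmab failed to pass with the deposited scaling (adjusted p = 0.0907), without wild type replicates 2 and 3 (0.136) and when any mouse but mutant replicate 1 was left out (up to 0.0986). Among 10 genes of sterol sensing and of protein removal from the endoplasmic reticulum, Erlin1, a membrane scaffold that binds sterol-regulatory complexes, was the only one that passed (-0.65 ± 0.11, adjusted p = 0.00692). Erlin1 did not pass without wild type replicates 2 and 3 (adjusted p = 0.0566). Thus 1 of these 10 genes fell, near the 8.93% of all rows.

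Of 10 genes of the LXR receptors and cholesterol export 1 fell and 1 rose, near the 8.93% and 6.52% of all rows. Nr1h3, the gene of LXRα, differed by -0.38 ± 0.10 (adjusted p = 0.0407). Abcg1, an exporter gene and LXR target that macrophages express strongly, differed by 0.53 ± 0.12 (adjusted p = 0.0216). Most of the Kupffer cell markers given above rose too, and a link between these rises was not tested. Nr1h3 failed to pass with the deposited scaling (adjusted p = 0.123), without wild type replicates 2 and 3 (0.107) and when any mouse but mutant replicate 1 was left out (up to 0.103). Abcg1 failed without wild type replicates 2 and 3 (adjusted p = 0.0635) and without mutant replicate 2, wild type replicate 1 or wild type replicate 4 (up to 0.0613). Of 16 other sterol transport genes 3 fell, against 8.93% of all rows. Gramd1c, of the family that carries plasma membrane cholesterol to the endoplasmic reticulum, differed by -0.76 ± 0.12, and the oxysterol-binding protein family genes Osbpl2 and Osbpl3 by -0.41 ± 0.09 and -1.58 ± 0.42 (adjusted p = 0.00596, 0.0224 and 0.0399). Osbpl2 and Osbpl3 did not pass as deposited (adjusted p = 0.0842 and 0.0551) or without wild type replicates 2 and 3 (0.110 and 0.149). Leaving out 1 mouse ended the Osbpl2 call for mutants 2 and 3 and for wild-type mice 2 to 4 (up to 0.0640), and the Osbpl3 call for every mouse except wild type replicate 4 (up to 0.1000).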

How the data were processed

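Per the labels' protocols, total RNA of 8 livers was extracted by acid phenol, labelled with Cy3 and hybridised to 1-colour Agilent arrays. The authors deposited 1 table of 41252 features with log2 values, normalised by a method not given in the sources used here and centred on each probe's median. Base 2 was inferred. After 78 control features were set aside, 41174 probes were each shifted to a common 75th percentile per array. The 32664 probes with 1 symbol were averaged per gene, which gave 19532 genes and 28042 rows in all. The column of every mouse was used, and 0 columns were left out.

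Genotypes were compared across all rows by a two-sided moderated test in limma 3.58.1 (R 4.3.3), with Benjamini-Hochberg adjustment. Figures used matplotlib 3.10.9. The procedure was tested on simulated data. Per-mouse values are given for members that passed and for the main regulators, and in each related list up to 3 passing genes with the smallest p are named. Hmgcs1, Sqle and the single probes that stand out were detailed after their values were seen. Members and lists were chosen with earlier results of these data known. Alternatives covered scaling, probe averaging, variance, array weights, the replicate number and single mice. The number of arrays limits the precision.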

Additional observations from a re-analysis of the deposited data

Results flagged for a closer look

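Each group of 4 mice was searched for a mouse far from the other 3, in 29 members and 11 related genes. Among these 80 groups 5 were marked, and chance alone marks about 1 in 20. Mutant replicate 3 was high for Ggps1 at 0.36, against -0.38 to -0.25 in the other mutants. Mutant replicate 4 was high for Fdft1 at 0.0495, against -0.53 to -0.45. Wild type replicate 1 was low for Tm7sf2 at -0.19, against 0.11 to 0.15 in the other wild-type mice, and high for Dhdds at 0.34, against 0.21 to 0.23. Wild type replicate 2 was low for Nr1h3 at 0.0547, against 0.21 to 0.23.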

How the results depend on the processing

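With 9 members lower as reported, 4 were lower with a replicate block, 4 without wild type replicates 2 and 3 and 5 when control features entered as a covariate, where 3.63%, 3.16% and 7.53% of all rows were lower. Leaving out 1 mouse gave 5 to 8, with 5 without mutant replicate 1 and without wild type replicate 3, where 6.79% and 5.50% of all rows were lower (5.50% to 7.11% over the 8 fits). The count of 1 member higher did not move under any setting. The members' median stayed within the spread between mice, at -0.55 to -0.41 without 1 mouse. For related genes the 13 lower became 5 as deposited, 4 with the replicate block, 4 without wild type replicates 2 and 3 and 5 to 9 without 1 mouse. With each probe alone, 20 related genes had at least 1 probe that passed as lower. That count favours genes with several probes and was adjusted over 41174 probes. The share of all genes under its rule was not computed. The 1 related gene higher became 0 with the block and without wild type replicates 2 and 3, and 0 to 1 without 1 mouse. Over all rows 2505 fell and 1828 rose as reported, 1537 and 2449 as deposited, 1019 and 1011 with the replicate block and 887 and 879 without wild type replicates 2 and 3. The cause of these shifts was not tested. Where mice were left out, the fit also had fewer mice, and this was not told apart from the arrays removed. Whether the replicate numbers pair the mice is not settled here. Same-numbered mice deviated together with correlations of 0.02, 0.08, -0.10 and 0.10, and differently numbered ones with -0.10 to 0.13. Such small values cannot exclude shared handling of same-numbered mice. Signs turned only in members that did not pass. As deposited Hsd17b7 was 0.0096, Scap 0.0731, Mbtps1 0.0909 and Npc2 0.12. Npc2 was 0.0091 with a common median, 0.0186 with quantile scaling, 0.0044 without wild type replicates 2 and 3 and 0.0071 with the control covariate, and Npc1 was -0.0298, -0.0931 and -0.0197 under the last 3 of these. Without those 2 mice Hsd17b7 was 0.0067. At the probe with the smallest p Npc1 was -0.34 and Mbtps1 0.27. Leaving out 1 mouse gave -0.0778 to 0.32 for Cyp51, -0.17 to 0.0165 for Hsd17b7, -0.0255 to 0.29 for Srebf2, -0.0923 to 0.0072 for Scap, -0.0639 to 0.0018 for Mbtps1, -0.62 to 0.24 for Mbtps2 and -0.0725 to 0.0336 for Npc2. The values of these single genes are limited by 4 mice per group and by signals whose height above background is unknown.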
